A study of Drosophila melanogaster with 3 samples.

Results

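The BMP (bone morphogenetic protein) pathway genes of Drosophila melanogaster were examined for peaks of M1BP, the Motif 1 binding protein encoded by CG9797. By gene name in the Ensembl annotation, 10 members were taken from 13945 protein-coding genes on the 6 main chromosome arms, and all 10 matched. Of these, 5 are receptors and Smads (tkv, sax, put, Mad and Med) and 5 are ligands and modulators (dpp, scw, gbb, sog and brk). The repressor gene brk was placed with the modulators by choice, and the count without it is given below. The series is a chromatin immunoprecipitation sequencing experiment on whole embryos of both sexes, aged 0 to 24 h, from a transgenic line with GFP at the C-terminus of CG9797. It holds 3 biological replicates that form 1 group, with no second condition, so every comparison below is between genes. Free text in the labels names the libraries input controls, while their antibody field, their assay title and a control experiment listed apart describe immunoprecipitated material. They were treated as immunoprecipitated, and this conflict touches every value below. The sources used here do not give the promoter of the transgene or whether the antibody was one against GFP. Whole embryos of these ages mix tissues and stages, and gene activity was not measured.

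In BMP signalling, secreted ligands bind paired type I and type II receptor kinases, which phosphorylate the Smad protein Mad. Mad enters the nucleus with the co-Smad Med and, among other effects, shuts down the repressor gene brk, which frees target genes. In the fly embryo the pathway is known for patterning the dorsal side. M1BP, a protein with zinc fingers, is known to bind Motif 1, a core promoter element found mainly at genes that are active in most cells.

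The authors deposited 5 peak lists. A thresholded list holds the entries that passed their filter on the irreproducible discovery rate (IDR). A pooled list and 1 list per replicate hold 30000 entries each, so they reach into the background. The thresholded entries are the strongest of the pooled list and keep their pooled ranks, and an equally long top of each replicate list is called its strongest entries below. Each entry has a summit and a signal value, which is a score of the authors' peak caller with no stated scale. Entries were therefore ranked by signal value within their own list, with rank 1 the strongest. Read depth is unknown. An entry was given to a gene when its summit lay within 1000 bp of any annotated start site of that gene.

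Among the 10 members, the receptor genes sax and put and the Smad gene Med had the strongest M1BP peaks. The pooled summits at sax and put lay nearer to the start sites of Nop17l (49 against 50 bp) and His4r (22 against 30 bp). In replicates 1 and 3, however, the summit was nearer to sax, and in replicates 2 and 3 nearer to put. Thresholded summits within 1000 bp were found for 4 of the 5 receptors and Smads (sax, put, Mad and Med) and for 1 of the 5 ligands and modulators (brk), while the background is 36.7% of all protein-coding genes (5114 of 13945). The peaks at sax, Med and put ranked 199, 201 and 211, and only 2.26% to 2.39% of all genes had an entry at least as strong. The replicate ranks of sax (166 to 273), Med (184 to 333) and put (172 to 466) overlapped, so these genes have no order among themselves, and all were ahead of Mad (2078 to 2781). In the pooled list Mad and brk ranked 2810 and 3004, and dpp, scw, gbb, sog and tkv had no thresholded summit in reach. All 10 members had some entry in at least 1 list, but so did 82.1% of all genes. In all, the 5 lists held 82 entries at the members, of which 7 were thresholded, 18 pooled and 23, 21 and 13 in replicates 1, 2 and 3.

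**Figure D1:**
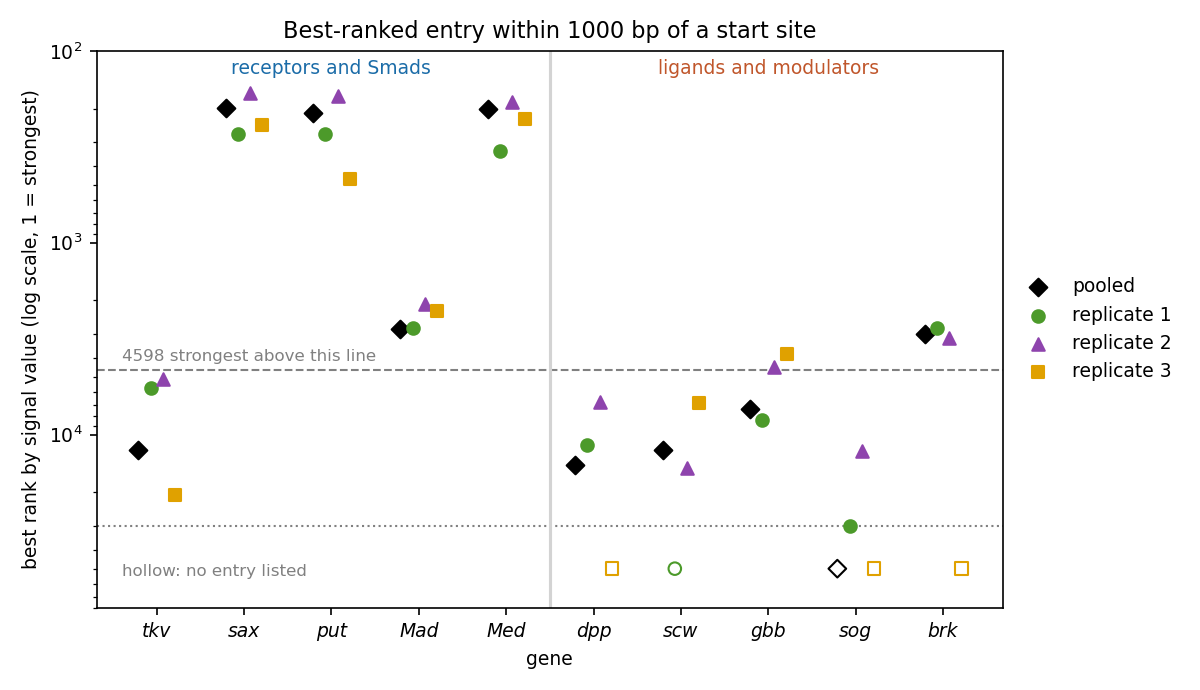
Best rank by signal value (vertical, log scale, 1 at the top) of the entries within 1000 bp of a start site of each gene, with 1 marker for the pooled list and 1 for each replicate. The dashed line marks the length of the thresholded list, the dotted line the list end at 30000, and hollow markers below it mean that the list has no entry there; sax, put and Med lie between ranks 166 and 466 in every list, apart from the other members.

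Among the type I receptors, sax had a strong peak. Its thresholded peak spans chr2R:7806218-7806663, with the summit 50 bp upstream of the start site at 7806484, between sax and the divergent gene Nop17l. The signal value was 1916 in the pooled list, and 920, 653 and 376 in replicates 1, 2 and 3, where the peak ranked 273, 166 and 245 (mean rank 228 ± 55.5, SD, n = 3). The summits of the replicates lay 22, 56 and 48 bp upstream of that start site, so position and rank were close in every replicate. The opposite start site of Nop17l lies 99 bp from that of sax, and the pooled summit was 49 bp from it, so the peak is as near to Nop17l as to sax. A weaker entry, 46 bp downstream of the second sax start site at 7806597, ranked 5684 in the pooled list. The same place ranked 10536 in replicate 1 and 2253 in replicate 3, but was not listed in replicate 2.

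Thickveins (tkv), the main type I receptor for Dpp, differed from sax. It spans chr2L:5219000-5271384 with 4 start sites, none of which had a thresholded summit within 1000 bp, and the closest lay 12479 bp upstream of the start site at 5244139, within the span of the gene. Its best entries ranked 12018 in the pooled list and 5710, 5147 and 20728 in replicates 1, 2 and 3 (mean 10528 ± 8838, SD, n = 3). These ranks came from different start sites. Replicate 1 had its best entry 348 bp inside the gene from the outermost start site at 5271384 and replicate 3 had its entry there at 413 bp, whereas replicate 2 listed none at that site. The entry of replicate 2 lay 100 bp upstream of the innermost start site at 5237362. At 5237362 the pooled entry of rank 12018 lay 292 bp upstream, replicate 1 had entries ranked 10180 and 18923, and replicate 2 had others ranked 7918 and 14632. The site at 5244139 had a pooled entry ranked 25209 and entries ranked 16290 and 21473 in replicate 2, and the site at 5242620 had none in any list. A remaining entry of replicate 1, ranked 24360, lay 136 bp inside the gene from 5271384. The entry at 5271384 in replicate 1 was the only one at tkv at the q-value ceiling of its list. No place at tkv was thus among the strongest entries of any replicate.

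Punt (put), the type II receptor, had a peak like that of sax. The thresholded peak spans chr3R:14625532-14625908, with the summit 30 bp upstream of the single start site at 14625703. Its signal value was 1885 in the pooled list and 920, 649 and 315 in replicates 1, 2 and 3, and the ranks were 272, 172 and 466 (mean 303 ± 149, SD, n = 3). Rank 466 in replicate 3 was the lowest of the 3, and all lay within the strongest 500. The opposite start site belongs to His4r, the histone H4 replacement gene, 52 bp away, and the pooled summit was 22 bp from it. Further entries lay 226 bp upstream in replicate 1 (rank 24813) and 238 and 921 bp upstream in replicate 3 (ranks 4114 and 20347).

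Both Smad genes had thresholded peaks, of unequal rank. Medea (Med), the co-Smad, had its peak at chr3R:31610792-31611295 with the summit 7 bp upstream of its start site at 31611046, a signal value of 1905 in the pooled list and 869, 639 and 388 in replicates 1, 2 and 3. It ranked 333, 184 and 226 there (mean 248 ± 76.8, SD, n = 3), and the summits lay 10, 5 and 16 bp upstream. A start site of CycG, which encodes cyclin G, lies 68 bp upstream on the opposite strand. The main summit also lay in an intron of CycG, so the Med promoter lies inside the span of that gene. A second thresholded entry, 199 bp downstream in the 5' UTR of Med and an intron of CycG, had a signal value of 368 and rank 3358. It ranked 6546, 3646 and 1924 in the replicates, so its rank varied more than that of the main peak, and replicate 1 did not place it among its strongest entries. Replicate 1 had 1 more entry, 954 bp upstream and ranked 26649.

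Mothers against dpp (Mad), the receptor-regulated Smad, has start sites at 3159643 and 3152753 on 2L, and each had a thresholded entry. The peak at the outer site, chr2L:3159359-3159874, had its summit 26 bp downstream in the 5' UTR, a pooled signal value of 441 and rank 2810. In the replicates the best entry there had signal values of 248, 159 and 120 and ranked 2827, 2078 and 2280. Replicates 1 and 3 had that summit at 19 bp downstream and 5 bp upstream, but replicate 2 had it 156 bp downstream, in an intron. The other entry, chr2L:3153316-3153520, lay in an intron of Mad, 653 bp upstream of the inner start site. Its signal value was 422 and its rank 2935, with ranks of 2781, 3564 and 3244 in replicates 1, 2 and 3. The replicate summits lay 7, 130 and 31 bp from the pooled one at the promoter peak and 23, 25 and 11 bp from it at the intronic entry, although no protein-coding start site lay closer than 653 bp to the intronic one. Weaker entries around both sites of Mad ranked 8079 and 10174 in replicate 1, 14310 in replicate 2 and 4839 in replicate 3. The nearest other gene is gkt, whose start site lies 307 bp from the outer one of Mad on the opposite strand.

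The promoter sequences of these genes show where Motif 1 lies under the peaks. Shown from the NCBI Release 6 genome (dm6 coordinates), 5' to 3' on the strand of the gene, are up to 120 bases before the start site and the first 30 transcribed bases, shorter where a neighbouring gene begins. Capitals mark a match to Motif 1 with at most 1 mismatch, and the put stretch has none. The consensus searched allows either pyrimidine at its first base and either purine at its last, so these variants are no mismatch.
Med, chr3R:31610949-31611075, plus strand: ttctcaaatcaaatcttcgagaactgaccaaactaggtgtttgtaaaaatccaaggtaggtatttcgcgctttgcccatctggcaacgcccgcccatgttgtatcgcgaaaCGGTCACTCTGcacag
Mad, chr2L:3159614-3159763, minus strand: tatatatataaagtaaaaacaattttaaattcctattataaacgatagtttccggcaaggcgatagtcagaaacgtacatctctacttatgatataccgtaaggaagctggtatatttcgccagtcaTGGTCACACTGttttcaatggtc
put, chr3R:14625674-14625784, minus strand: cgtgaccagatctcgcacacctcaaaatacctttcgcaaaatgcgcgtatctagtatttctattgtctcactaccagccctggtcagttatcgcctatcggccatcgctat
At Mad the match TGGTCACACTG was exact and began at base 8 of the transcript, its centre 14 bp from the pooled summit. At Med the match CGGTCACTCTG began at base 15, with its centre 26 bp from the summit, and had the substitution A8T, counted from 1 at the 5' end of the consensus. At sax an exact match began 14 bases before the start site at 7806484, its centre 41 bp from the pooled summit, and the same promoter held the DRE sequence TATCGATA at base 11 of the transcript. The put peak, as strong as those of sax and Med, had no match within 100 bp of its summit. Across all thresholded peaks, 10.7% of summits had an exact match within 100 bp and 28.1% a match with at most 1 mismatch.

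None of the 3 ligand genes had a thresholded summit, and only gbb was among the strongest entries of any replicate. Decapentaplegic (dpp), the BMP2 and BMP4 homologue of the fly, spans chr2L:2428372-2459823 with 4 start sites, and its nearest thresholded summit lay 7637 bp upstream of the outermost, at CG9886. Its 4 pooled entries ranked 14342, 20936, 22342 and 25789, the best of them 154 bp downstream of the start site at 2451229. The best entries of replicates 1 and 2 ranked 11402 and 6781, at the same start site, and replicate 3 listed none at any dpp start site. The remaining entries ranked 24892 in replicate 1 and 14657, 21282 and 26737 in replicate 2. At the outermost start site, 2428372, no list had an entry. The −log10 q-values of the dpp entries were at most 1.05, against a ceiling of 3.56 to 4.08 in the 3 replicate lists.

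Screw (scw), the ligand of the early embryo, has 1 start site at 19700968 on 2L. The pooled list had 1 entry, 339 bp upstream, with rank 11972. Replicates 2 and 3 had 1 each, 452 and 332 bp upstream, with ranks 14998 and 6823, and replicate 1 had none. These summits lay in a coding exon of Lar and the 3' UTR of CG46244, not at another start site, and the nearest thresholded summit was 34976 bp away.

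Glass bottom boat (gbb), a BMP ligand known for its role at the neuromuscular junction, came closest to the threshold among the ligands. Its start site at 23851562 on 2R faces that of ytr 82 bp away. The best pooled entry lay 53 bp upstream, between the genes, with a signal value of 157 and rank 7317. Replicates 1, 2 and 3 had their best entries at ranks 8379, 4441 and 3827 (mean 5549 ± 2470, SD, n = 3), so replicates 2 and 3 placed gbb among their strongest entries and replicate 1 did not. The positions differed as well: the summits of replicates 1 and 3 lay 85 and 95 bp upstream, 3 and 13 bp from the ytr start site, and that of replicate 2 lay 114 bp downstream in the 5' UTR of gbb. Other entries were ranked 12738 and 13526 in the pooled list, 9423 and 23575 in replicate 1 and 11565 in replicate 2. A thresholded summit just beyond the limit, 1183 bp upstream of gbb, ranked 2296 and belonged to the start site of eIF6, 78 bp from it.

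Among the modulators, short gastrulation (sog), which encodes a secreted ligand-binding protein of the chordin family, had the fewest entries. It spans chrX:15603283-15633434, and its nearest thresholded summit lay 43521 bp away. Neither the thresholded nor the pooled list had an entry at its start sites. Replicate 1 had 1, ranked 29871, 534 bp downstream of the start site at 15633434. Replicate 2 had 1, ranked 12244, 11 bp upstream of the start site at 15626540, and replicate 3 had none.

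Brinker (brk), the repressor of Dpp target genes, had a thresholded peak that the replicates did not share. The peak, chrX:7307050-7307565, had a signal value of 411, rank 3004 and its summit 631 bp upstream of the start site at 7307939, inside an intron of CG1677. The strongest entries of replicates 1 and 2 ranked 2772 and 3123, and replicate 3 listed none within 1000 bp, its nearest summit being 5654 bp from the pooled one. The entry of replicate 1 lay 712 bp upstream, with a second ranked 7773 at 510 bp, and that of replicate 2 lay 299 bp upstream. Only replicate 1 thus had a summit within 100 bp of the pooled one. The GC content within 100 bp of the summit was 27.9% in replicate 1 and 56.7% in replicate 2, against a median of 38.8% over all thresholded summits. Whether base composition had a part in this difference was not tested. No start site lay nearer to the peak than that of brk. The 85 bases on each side of the pooled summit are shown on the plus strand, with a single match to Motif 1 with 1 mismatch in capitals. Its substitution is A6C, and its centre lies 75 bp from the summit.
brk peak, chrX:7307223-7307393, plus strand: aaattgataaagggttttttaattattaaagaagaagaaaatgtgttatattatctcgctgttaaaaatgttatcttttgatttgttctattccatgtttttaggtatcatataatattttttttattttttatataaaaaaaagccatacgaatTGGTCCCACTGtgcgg
This peak decided the count of ligands and modulators. Each replicate was set aside in turn, and a thresholded peak was kept with a summit within 100 bp among the strongest entries of both others. The thresholded list itself still drew on all 3 replicates. The count was then 0 of 5 each time, which for brk follows from the distances above, as only replicate 1 had such a summit. The count of receptors and Smads was 4 of 5 each time, against 20.9%, 28.8% and 23.9% of all genes under the same rule. Without replicate 1 or 3, Mad passed through its intronic entry alone, since the summit of replicate 2 lay 130 bp from the promoter peak.

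**Figure D2:**
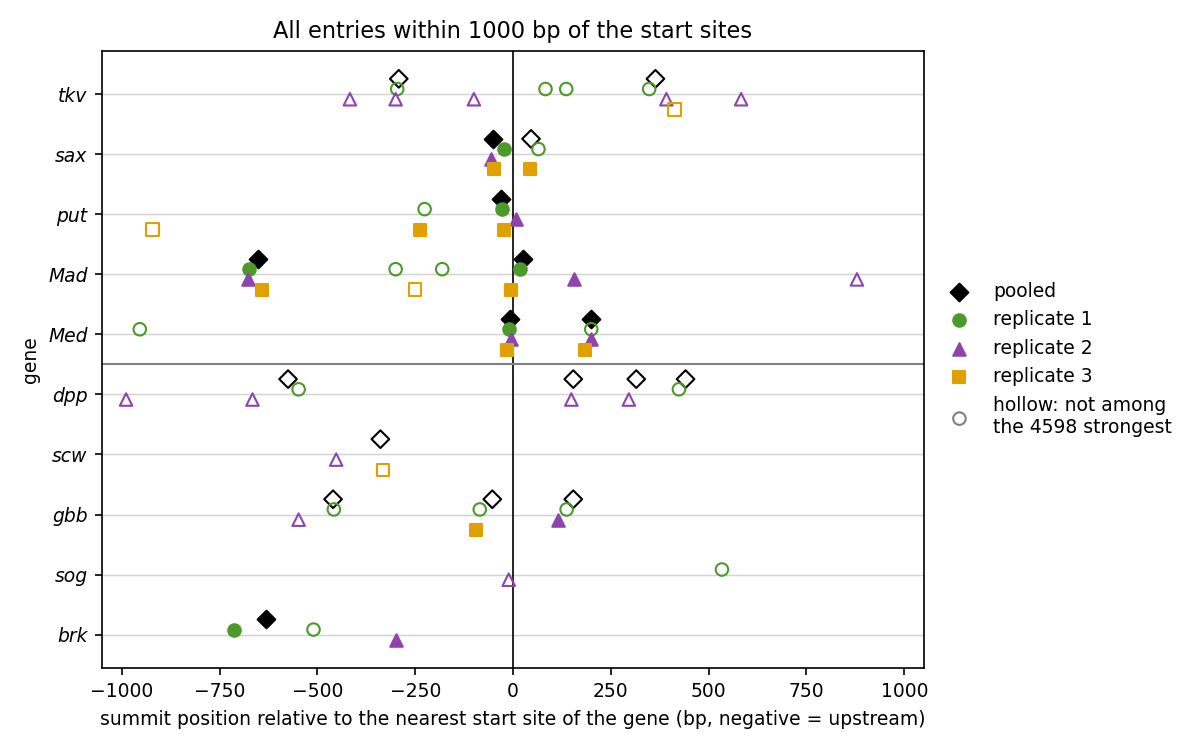
Position of each summit of the pooled and replicate lists (horizontal, bp from the nearest start site of the gene, negative upstream) for the 10 genes, receptors and Smads above, ligands and modulators below. Filled markers are among the strongest of their list, down to the length of the thresholded list; at sax, put and Med the best-ranked summits of all 3 replicates lie within 56 bp of a start site, while the filled markers of gbb and brk lie apart from each other.

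The classes differed in the same way in each replicate. Among the strongest entries, receptors and Smads counted 4 of 5 genes in replicates 1, 2 and 3, and ligands and modulators 1, 2 and 1 of 5 (mean 1.33 ± 0.577, SD, n = 3). The ligands and modulators counted were brk in replicate 1, gbb and brk in replicate 2, and gbb in replicate 3, so none recurred in every replicate. The background in these lists was 36.9%, 34.9% and 34.8% of all genes. The median best rank of receptors and Smads was 211 in the pooled list, that of ligands and modulators was 11972, and that of all genes was 10745, with unlisted genes placed last. The 3 replicates gave 333, 184 and 466 for receptors and Smads. For ligands and modulators they gave 11402 and 6781 in replicates 1 and 2, and a median beyond rank 30000 in replicate 3. For all genes the medians were 10006, 12902 and 13176. The classes still overlapped, since tkv ranked below brk and gbb in the pooled list, and just below scw (12018 against 11972). These are descriptions of 5 genes against 5, and no test was made. A pooled entry of any rank lay in reach of 5 of 5 and 4 of 5 genes, against 66.2% of all genes, and replicates 1, 2 and 3 listed 65.6%, 63.3% and 64.4% of all genes.

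At a limit of 250 bp, the 4 receptors and Smads kept their summits and none of the ligands and modulators had one, against 31.1% of all genes. A peak between neighbouring genes counts for both in these figures. When each peak counted only for the gene with the nearest start site, the peak of sax went to Nop17l (49 bp against 50 bp) and that of put to His4r (22 bp against 30 bp). The count was then 2 of 5 for receptors and Smads and 1 of 5 for ligands and modulators, against 26.7% of all genes. This count rests on the pooled summits. The best summit was nearest to sax in replicates 1 and 3 (22 and 48 bp), and to put in replicates 2 and 3 (8 and 22 bp).

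The members with a thresholded promoter peak have a start site of another gene nearby in the opposite orientation. Such a start site, on the opposite strand and at most 1000 bp upstream, was present at 5 members (sax, put, Mad, Med and gbb), and 4 of these had a thresholded summit, against 1 of the 5 others (brk). Over the genome, 67.6% of 5052 genes with such a site had a thresholded summit, against 19.1% of 8893 without. All 4 receptors and Smads with a peak are of this divergent kind and tkv is not, and gbb is the only divergent gene of the other class, so promoter arrangement and pathway role cannot be told apart here. Neither did more start sites go with a peak at these genes: dpp and tkv have 4 each and no thresholded summit, whereas 56.8% of the genes with 4 or more start sites had one. Of genes with 1 start site 32.2% had one, and of those with 2 to 3 start sites 47.9%.

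**Figure D3:**
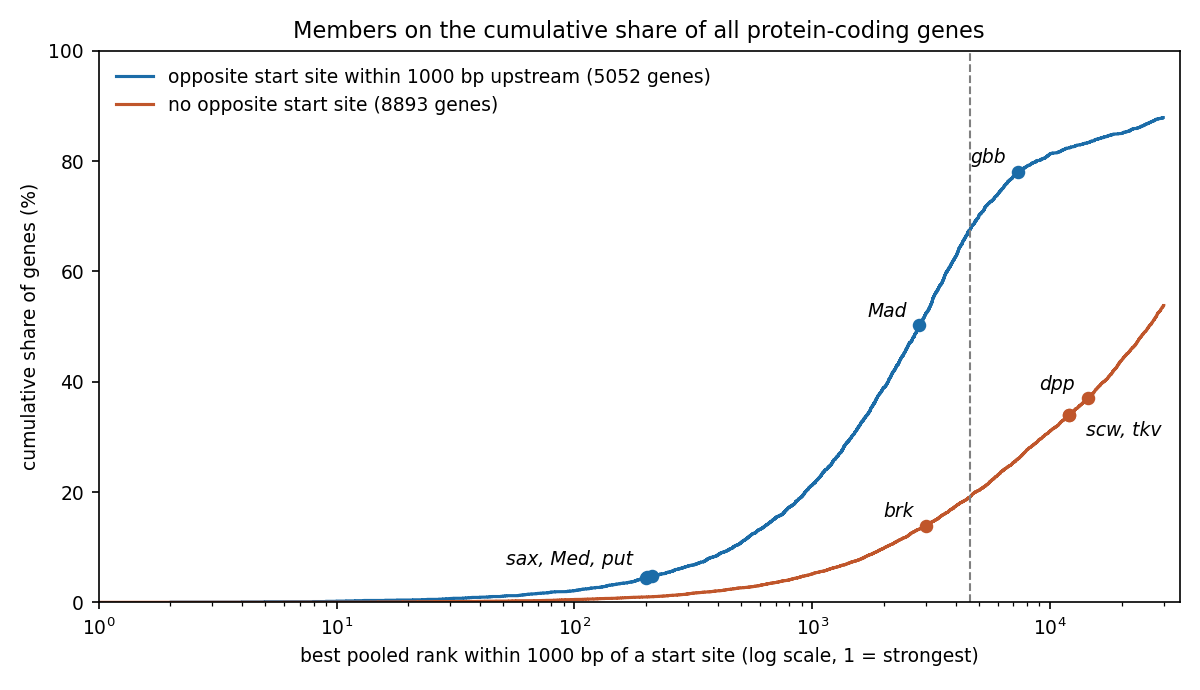
Cumulative share of genes (vertical, %) whose best pooled entry within 1000 bp of a start site ranks at or above the horizontal value (log scale), for the 5052 genes with an opposite start site upstream (upper line) and the 8893 without (lower line). Points mark the members, and the dashed line is the length of the thresholded list; sax, Med and put sit at ranks 199 to 211 on the upper line, and sog is not drawn because the pooled list has no entry for it.

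The promoters of the members also differed in sequence. Windows of 250 bases before and 50 from each start site were searched on both strands for GGTCACAC (the core of Motif 1), for Motif 1 itself, and for TATCGATA (DRE), GAGAG and TATAAA. GGTCACAC lies within Motif 1. Motif 1 with at most 1 mismatch was found at 3 of 5 receptors and Smads (sax, Mad and Med) and at 0 of 5 ligands and modulators. By start site these were 4 of 10 and 0 of 9, against 10.5% of all 19253. The windows of the sax start sites at 7806484 and 7806597 overlap. The counts by start site therefore include the same sax match of Motif 1, of GGTCACAC and of DRE at both sites. Motif 1 with at most 1 mismatch was found in 24.0% of the promoters of genes with a thresholded summit and in 1.20% of the others. GGTCACAC was found at sax and Mad alone among the members, at 3 of their start sites, against 6.72% of all promoters. GAGAG was found at 1 of 5 receptors and Smads (tkv) and at 4 of 5 ligands and modulators (dpp, scw, sog and brk), and by start site at 2 of 10 and 7 of 9, against 33.1% of all promoters. GAGAG is the sequence known to be bound by the GAGA factor, and DRE that bound by DREF in the fly. DRE was found at both start sites of sax and at the tkv start sites 5242620 and 5271384, which are 4 of 10, and at 0 of 9 start sites of ligands and modulators, against 7.98% of all promoters. TATAAA was found at 3 of 10 start sites of receptors and Smads and at 3 of 9 of ligands and modulators, against 42.2% of all promoters. Matches describe these windows and were not tested for binding.

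Promoters of genes without a thresholded summit are shown for comparison, in the same manner. Capitals mark DRE in the first tkv stretch and GAGAG on either strand in the others.
tkv outer start site, chr2L:5271355-5271504, minus strand: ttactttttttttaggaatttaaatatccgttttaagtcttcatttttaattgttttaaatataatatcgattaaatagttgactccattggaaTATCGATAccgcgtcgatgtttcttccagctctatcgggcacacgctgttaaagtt
tkv inner start site, chr2L:5237333-5237482, minus strand: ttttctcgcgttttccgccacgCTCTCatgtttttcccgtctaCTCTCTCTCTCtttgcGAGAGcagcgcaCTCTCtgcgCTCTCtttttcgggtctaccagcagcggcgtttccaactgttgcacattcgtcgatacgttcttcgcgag
dpp, chr2L:2451109-2451258, plus strand: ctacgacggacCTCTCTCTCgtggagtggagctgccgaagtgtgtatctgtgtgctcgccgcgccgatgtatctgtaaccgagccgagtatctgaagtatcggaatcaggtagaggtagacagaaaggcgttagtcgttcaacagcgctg
sog, chrX:15633405-15633554, minus strand: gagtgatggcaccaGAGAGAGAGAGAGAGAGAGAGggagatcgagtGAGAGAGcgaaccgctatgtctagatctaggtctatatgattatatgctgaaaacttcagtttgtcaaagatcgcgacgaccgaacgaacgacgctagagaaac
The GC content of the stretches shown was 47.7% at put, 47.2% at Med, 34.0% at Mad, 30.7% at the outer and 53.3% at the inner start site of tkv, 54.7% at dpp and 47.3% at sog.

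Other genes of the BMP and activin pathways, 48 in number and taken by role, had thresholded summits most often at the intracellular regulators. A summit within 1000 bp was found at 19 of the 48 (39.6%), close to the 36.7% of all genes. All 8 intracellular regulators had one, with a median best pooled rank of 1224. They were led by Dd, the homologue of the phosphatase Dullard (signal value 2242, rank 106; 156, 101 and 179 in replicates 1, 2 and 3), and by sgg, the fly GSK3 kinase (1534, rank 416; 456, 531 and 533). Of Smads and nuclear cofactors 3 of 7 had one. Smox, the Smad of the activin branch, ranked 152 (186, 212 and 94 in the replicates) and Snoo, a Ski-family corepressor, ranked 464 (748, 220 and 1135), whereas Dad, the inhibitory Smad, ranked 10616 and was listed in replicate 1 alone. Of the 2 other receptors, babo, the activin type I receptor, had a summit of rank 637 (832, 514 and 885), and wit, a type II receptor known from motor neurons, had none and ranked 14677. Of the 48 genes, 11 of the 14 with an opposite start site upstream had a thresholded summit (78.6%), against 8 of the 34 without (23.5%). Dd is of the divergent kind, next to CG1486, with its summit 144 bp from its start site, and Smox, Snoo, babo and sgg are not, with summits within 64 bp.

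None of the 4 other ligands (mav, daw, Actbeta and myo) had a thresholded summit. Only daw had a pooled entry, with rank 14079. The others had entries in replicate 1 alone, with ranks 8252 (mav), 5874 (Actbeta) and 5855 (myo). Absence from the pooled list did not always go with low ranks in the replicates. The Wingless pathway genes pan and lgs were unlisted there, yet ranked 4242 and 2204 in replicate 1 and 2874 and 1595 in replicate 3. Why they were unlisted was not tested. Extracellular modulators and proteases had 5 of 14, led by the furin protease gene Fur1 (rank 1816; 1733, 1574 and 3004 in the replicates) and magu, a secreted feedback regulator (rank 2254; 1982, 3169 and 2031). Both genes have a divergent neighbour, Vps33B and sel. Of 13 target genes 2 had a summit, the GATA factor gene pnr (rank 3362; 4989, 2113 and 9392) and its cofactor ush (rank 3474; 3786, 2962 and 5085). The share was 35.7% for extracellular modulators and proteases and 15.4% for targets, against 36.7% of all genes.

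**Figure D4:**
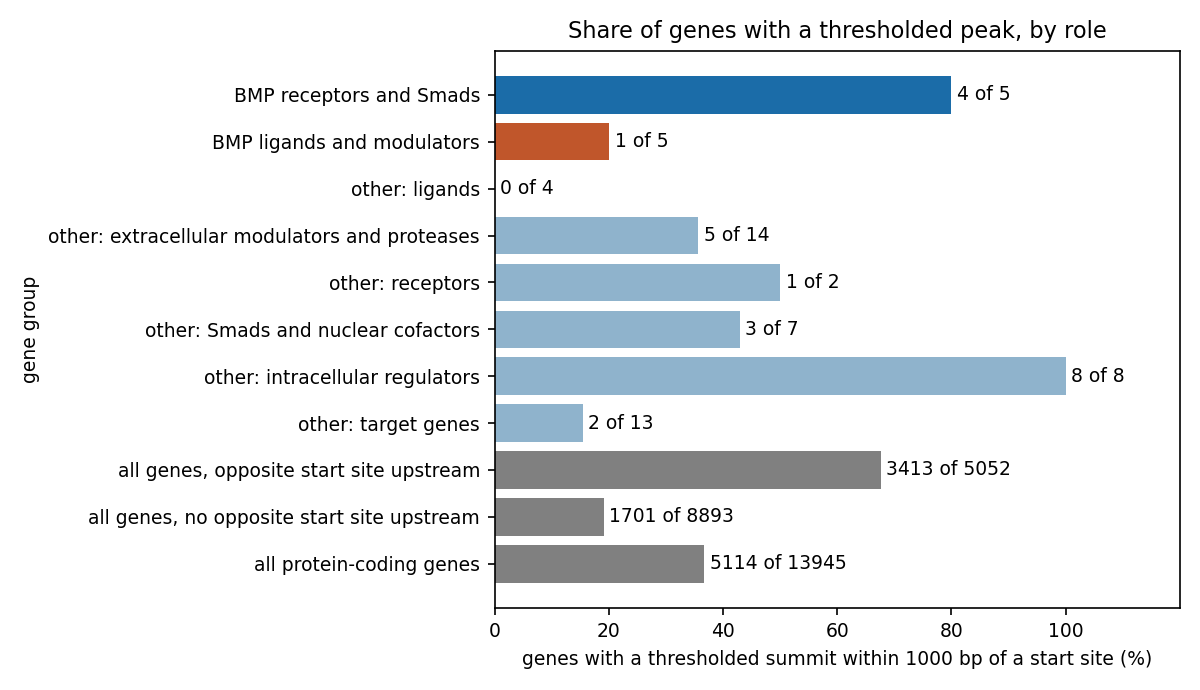
Share of genes (horizontal, %) with a thresholded summit within 1000 bp of a start site, with the counts at the bars, for the members by class, the other BMP and activin genes by role, and all protein-coding genes with and without an opposite start site upstream. Receptors and Smads (4 of 5) and intracellular regulators (8 of 8) lie above the 36.7% of all genes, and the ligand bars lie below it. The other receptors (1 of 2) and other Smads and nuclear cofactors (3 of 7) lie above it by less.

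A like split was seen in the Wingless, Hedgehog, Notch and EGF receptor pathways. Of their receptors and transducers 21 of 35 had a thresholded summit (60.0%, median best pooled rank 2369), against 2 of 16 ligands and modulators (12.5%, median 9286). Of all genes 36.7% had one, with a median rank of 10745. The receptors and transducers include sgg, which was also counted above among the intracellular regulators. Receptors and transducers with a summit were 6 of 12 for Wingless, 4 of 8 for Hedgehog, 5 of 6 for Notch and 6 of 9 for the EGF receptor. By pathway the ligands and modulators with a summit were 0 of 7 for Wingless, 0 of 2 for Hedgehog, 0 of 2 for Notch and 2 of 5 for the EGF receptor, the last at 40.0%. These 2 were spi and Krn, both ligands of the EGF receptor, with ranks 2243 and 2732, and both have a divergent neighbour. These lists were not split by divergent neighbour, so promoter arrangement was not set apart from pathway role in them. They were not tested, and nothing in them is called particular to the BMP genes.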

How the data were processed

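Peak lists came from chromatin immunoprecipitation of CG9797-GFP in whole embryos, in 3 biological replicates, with chromatin sheared to 200 to 800 bp per the labels. Per the deposited notes, each replicate's list was called from its alignment and 1 control file shared by all, the pooled list from the 3 alignments together, and the thresholded list was derived from these 4 lists by IDR, all on dm6. The sources used here name no aligner, peak caller, software version or IDR cutoff. The signal value is a score that the authors deposited with no stated scale, comparable within 1 list only. The deposited −log10 q-value is capped, and 96.7% of the thresholded entries sit at the cap. Summit offsets were deposited in bp from the interval start. The files hold no read counts, so depth is unknown.

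Summits were set beside start sites of protein-coding transcripts (Ensembl release 115, BDGP6), and sequences were read from the NCBI Release 6 genome, in which 99.8% of 30593 annotated start codons read ATG. Coordinates count from 1. A gene was called when a thresholded summit lay within 1000 bp. Members and gene lists were chosen with earlier results of these data known, so no test was made and counts stand beside those of all genes; genes are not replicates, and the replicate lists show the spread between samples. Named genes are the members, neighbours nearer to a summit, the 2 best-ranked genes of each other role, and ligands of other pathways with a thresholded summit. Dad, pan, lgs and the other ligands without a summit were named after their values were seen. In the comparison lists 3 symbols matched no gene name, all of them ligands or modulators (2 of Wingless, 1 of Notch), which leaves 16 in that class and only 2 for Notch. The search was checked on simulated summits and motifs. Python 3.11.15, numpy 2.4.6, pandas 2.3.3 and matplotlib 3.10.9 were used.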

Additional observations from a re-analysis of the deposited data

How the results depend on the processing

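The count of receptors and Smads was 4 of 5 with limits of 250 and 500 bp, with the most upstream start site alone, with the interval in place of the summit and in each replicate alone, and 3 of 5 (sax, put and Med) above the median signal value or among the 2000 strongest pooled entries. It was 2 of 5 when a peak counted only for the start site nearest to its pooled summit. Leaving out each replicate gave 4 of 5. Here a replicate was left out only in the match of summits, and the thresholded list still drew on all 3. The share of all genes, 36.7% as reported, was 31.1% at 250 bp, 34.5% at 500 bp, 35.6% with the most upstream start site, 37.5% with intervals, 22.8% above the median signal value, 20.4% for the 2000 strongest, 26.7% with the nearest start site only, 34.8% to 36.9% in single replicates and 20.9% to 28.8% on leaving out a replicate. The count of ligands and modulators was 1 of 5, and 0 within 250 bp, within 500 bp, above the median signal value, among the 2000 strongest, with brk left out, and without any 1 replicate (0 to 0 of 5). It was 2 in replicate 2 alone, where gbb was added, and in replicate 3 alone the gene counted was gbb, not brk. For all 10 members the count of 5 was 3 above the median signal value, 3 among the 2000 strongest and 3 with the nearest start site only, and 4 without any 1 replicate. Under these alternatives receptors and Smads always counted more genes than ligands and modulators. With entries counted only for the nearest start site, the best pooled rank of sax was 5684, against 199, that of gbb was 12738, against 7317, and put had none. The direction between the classes rests on 5 genes each, ranks cannot show how much weaker 1 peak is than another across lists, and with depth unknown an unlisted gene is not shown to lack binding. No paired analysis was possible because the series has 1 group.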

Other observations

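At 7 members, of high and low rank, an entry was followed by a second, weaker one at 199 to 245 bp in the same list. At Med the gap was 206 bp in the pooled list and 210, 204 and 201 bp in replicates 1, 2 and 3, and at sax it was 209 bp in the pooled list and 200 and 204 bp in replicates 1 and 3. At put it was 199 bp in replicate 1 and 216 bp in replicate 3, and at Mad 200 and 245 bp in the same replicates. At the lower-ranked entries of tkv it was 212 and 200 bp in replicates 1 and 2, at gbb 207 bp in the pooled list and 222 bp in replicate 1, and at brk 202 bp in replicate 1. In each of the 5 lists the smallest gap between neighbouring summits was 199 bp, and 722 neighbouring pairs of the thresholded list lay within 250 bp (15.7% of its entries). The like shares were 14.6% in the pooled list and 16.7%, 10.1% and 11.9% in replicates 1, 2 and 3. The share of all genes with such a pair was not counted, so the pairs are not called particular to the members. The second entry was taken as the weaker of each pair, so its lower rank is no separate result.

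Most relaxed entries had 1 fixed width, 516 bp in 91.4% of the pooled list and 524, 444 and 510 bp in 89.3%, 94.5% and 97.3% of replicates 1, 2 and 3. In the thresholded list the share was 47.2%. The thresholded peaks at put, sax and Med were narrower than this, at 377, 446 and 504 bp, as was the intronic entry of Mad at 205 bp. The promoter peak of Mad and the peak of brk had the fixed width of 516 bp. Replicate 2 gave the summit farthest downstream of the 3 at Mad (156 bp), at put (8 bp) and at gbb (114 bp), and the farthest upstream at sax (56 bp).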
